A study of Mus musculus with 6 samples.

Results

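Dermal fibroblast-like cells made up 391 of the 20941 cells kept from 6 single-cell RNA-seq libraries of sorted mouse back skin cells. A cell was kept with 200 to 5000 detected genes and under 10% of its UMIs (unique molecular identifiers, each counting 1 captured transcript) on mitochondrial genes. It was called fibroblast-like when it had no UMI of the leukocyte gene *Ptprc* or the endothelial gene *Pecam1*, a UMI of at least 4 of the 7 genes *Pdgfra*, *Dpt*, *Lum*, *Clec3b*, *Tnfaip6*, *Mmp2* and *Loxl1*, and no UMI of the perineurial genes *Wnt6*, *Cldn22* and *Slc6a13*. The members were thus chosen on measured values of 12 genes, and the levels of those genes are given below as a description only. The rule found 100 and 126 cells in the 2 WT telogen libraries, 58 and 49 in the 2 WT anagen libraries, and 23 and 35 in the 2 Alk1 KO telogen libraries.

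Each library came from 1 mouse, so every group had n = 2. WT telogen mice (PD20, the resting phase of the hair cycle) and WT anagen mice (PD32, the growth phase) carried Cdh5-CreERT2, tdTomato and Krt14-H2BGFP on a C57BL/6;CD1 background. Alk1 KO telogen mice (PD25) carried Alk1 flox/flox, Cdh5-CreERT2 and tdTomato on C57BL/6, without Krt14-H2BGFP. All received tamoxifen at PD17 (200 µg/g), and tdTomato+ cells were sorted by FACS. The WT cells were also sorted as negative for Krt14-H2BGFP, which the KO mice lacked. The promoter of *Cdh5* (VE-cadherin) drives the Cre mainly in endothelial cells, so neither the label nor the deletion of Alk1 (*Acvrl1*) was directed at fibroblasts, and the KO libraries describe fibroblast-like cells of the same skin rather than cells with a known deletion. GEO's genotype field reads wild type for the KO libraries too. Their titles name the KO. The authors describe the KO data as a previous dataset of theirs. Genotype, age, strain, the Krt14-H2BGFP allele and the dataset changed together between KO and WT telogen and cannot be told apart.

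Dermal fibroblasts are the cells that make and maintain the connective tissue of skin. They secrete the fibrillar collagens, which are folded and modified in the endoplasmic reticulum (ER) before export, along with proteoglycans, elastic fibre proteins, growth factors and cytokines. Some populations lie close to hair follicles, nerves or fat and differ in their markers.

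The 7 rule genes were each found in 73.9% (*Loxl1*) to 96.4% (*Mmp2*) of the members. Genes that the rule did not use gave the same cell type label. Of 20 other fibroblast genes that were checked, all were detected in each WT library and 19 in each KO library. Their summed level was 104856 to 115641 CPM (the UMIs of a gene scaled to the total UMIs of the members of that library) in the 4 WT libraries, but 32834 and 27342 CPM in the KO, where 14 of 19 tested genes fell and 1, *Pdgfrb*, rose. *Col1a1* and *Col1a2*, the chains of type I collagen, were found in 383 and 387 of the members. *Col3a1*, the chain of type III collagen, was found in 382 members (97.7%), the proteoglycan gene *Dcn* in 99.0% and the actin-severing protein gene *Gsn* in 98.7%. Genes of other cell types were low. The summed level of 16 immune genes was 18.4 to 129 CPM, with *Csf1r* as the most abundant (mean 9.66 CPM) and *Cd3g* at 0. That of 14 endothelial genes was 54.9 to 142 CPM, led by *Plvap* (33.9 CPM), and that of 10 pericyte and smooth muscle genes 20.6 to 105 CPM, led by *Des* (19.8 CPM) with *Higd1b* at 0. For 10 keratinocyte genes it was 6.86 to 60.5 CPM, led by *Krt10* (27.0 CPM), and *Krt14*, *Krt5*, *Krt15*, *Krt17* and *Dsp* were at 0. For 8 Schwann cell genes it was 6.86 to 36.6 CPM, led by *S100b* (12.6 CPM), with *Sox10* and *Foxd3* at 0. The highest sum belonged to 10 perineurial genes, at 70.7 to 471 CPM, led on average by *Thbs4* (80.5 CPM). That mean rested on WT anagen library 1, with 391 CPM, and *Thbs4* was at 44.8 CPM or below in the others.

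Near the threshold, the 40 cells with 3 of the 7 markers had a median of 5719 UMIs and held 8467 CPM of *Dcn*, 6864 CPM of *Col1a1* and 897 CPM of the pericyte gene *Rgs5*. The 44 members with 4 markers had a median of 6984 UMIs and held 14225 CPM of *Dcn*, 8733 CPM of *Col1a1* and 0 CPM of *Rgs5*. The 199 members with all 7 had a median of 18599 UMIs, so the number of markers found moved with depth. No member shared its barcode with a member of another library.

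*Cdh5* was low in the members. After thinning each cell to 1500 UMIs, 5 of 387 fibroblast-like cells (1.29%, exact 95% binomial interval 0.421 to 2.99) had a *Cdh5* UMI, with 4 shallower cells left out. Immune-like cells, which should lack the gene, had one in 21 of 2544 cells (0.825%, 0.512 to 1.26). Perineurial-like cells, which were chosen without *Cdh5*, had one in 26.6%. At 3000 UMIs the shares were 16 of 379 fibroblast-like cells (4.22%, 2.43 to 6.77) and 27 of 2400 immune-like cells (1.13%, 0.743 to 1.63), but 9 of the 16 cells came from WT telogen library 2. Without that library the intervals overlapped, at 2.73% (1.11 to 5.55) and 1.31% (0.702 to 2.24). Without thinning the shares were 12.8% and 4.50% at median depths of 14234 and 12006 UMIs in fibroblast-like and immune-like cells.

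The libraries differed in depth and in sex-linked genes. They held 32626434 and 43317677 UMIs in WT telogen, 35035677 and 29851591 in WT anagen, and 10615358 and 11239445 in Alk1 KO telogen. Fibroblast-like cells had medians of 18620 and 16025.5 UMIs per cell in WT telogen and 13478 and 13552 in WT anagen, but 9018 and 7030 in the KO. Endothelial cells of the same libraries stayed between 5183 and 6699 UMIs. *Xist*, the non-coding RNA of the inactive X chromosome, was at 799 and 0 CPM in WT telogen, 1.21 and 0 in WT anagen and 1254 and 1640 in the KO. The Y-linked *Ddx3y* was at 0.547 and 120 CPM, 113 and 76.3 CPM, and 0 and 0 CPM in the same order. WT telogen 1 and both KO libraries therefore shared one pattern, and WT telogen 2 and both WT anagen libraries the other, so that sex-linked expression also moved with the groups.

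**Figure D1:**
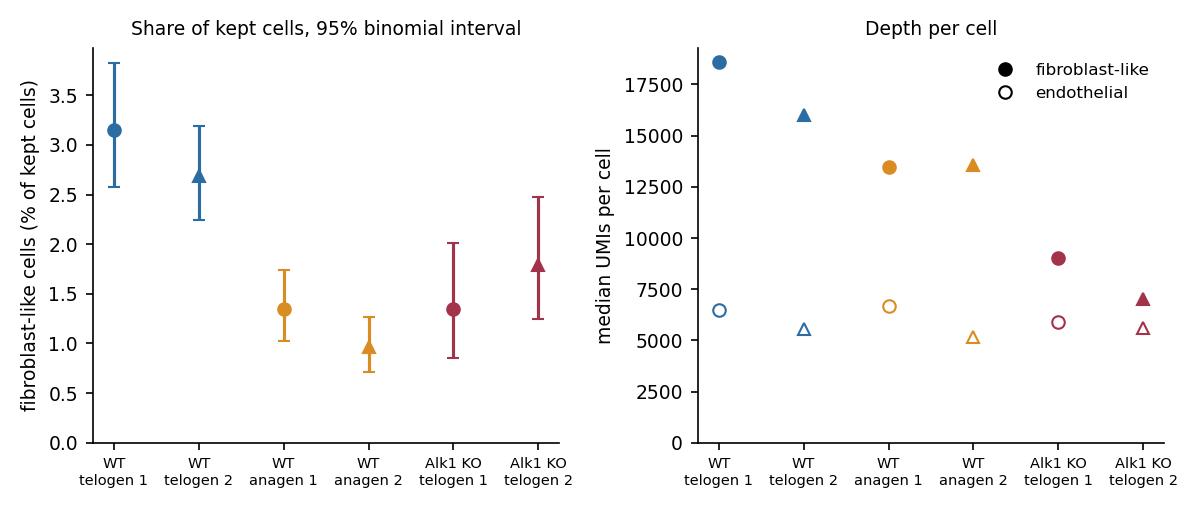
Left, fibroblast-like cells as a percentage of the kept cells of each library with exact 95% binomial intervals. Right, median UMIs per cell of fibroblast-like (filled) and endothelial (open) cells. The WT telogen libraries hold the highest shares (3.15% and 2.69%), and the fibroblast-like cells of the KO the lowest depth (9018 and 7030 UMIs).

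Fibroblast-like cells were 3.15% (exact 95% binomial interval 2.57 to 3.82) and 2.69% (2.24 to 3.19) of the kept cells in WT telogen. They were 1.35% (1.03 to 1.74) and 0.960% (0.711 to 1.27) in WT anagen, and 1.34% (0.853 to 2.01) and 1.79% (1.25 to 2.48) in the KO. The means were 2.92 ± 0.331%, 1.15 ± 0.275% and 1.57 ± 0.315% (SD, n = 2). Both WT telogen libraries lay above all 4 others. The differences from WT telogen were -1.77 percentage points in anagen and -1.35 in the KO. An exact two-sided permutation test gave p = 0.333 for each, the smallest value that 2 against 2 libraries allow. After thinning each cell to 1500 UMIs before the rule was applied, with shallower cells left out, the means were 2.69% in WT telogen and 0.777% in the KO, and the ratio of KO to telogen moved from 0.536 to 0.289. Among cells without a *Ptprc* UMI it was 0.367. These are shares of sorted cells, which the sort and the numbers of the other sorted cells also set.

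By mean level over the 6 libraries, collagens led the protein-coding genes, which rested on the WT libraries. Each transcript gives 1 count at its 3′ end whatever its length. The means were 18185 CPM for *Col1a1*, 18006 for *Col3a1*, 14493 for *Col1a2*, 13795 for *Dcn* and 13772 for *Sparc*, a collagen-binding protein, beside 32052 CPM for the nuclear RNA *Malat1*. In the KO libraries *Dcn* (19813 and 13105 CPM), the metallothionein gene *Mt1* (11211 and 4917 CPM) and *Gsn* (5672 and 6561 CPM) stood above *Col1a1* (1860 and 1795 CPM). Against endothelial, perineurial-like and immune-like cells, the largest margins belonged to *Mfap4*, a microfibril-associated protein (at least 313-fold in mean CPM + 1), *Cilp* (251-fold), the matrix protein *Thbs2* (178-fold), the ferritin receptor *Scara5* (135-fold), the procollagen enhancer *Pcolce2* (99.9-fold) and the retinoic acid-degrading enzyme *Cyp26b1* (84.1-fold). These margins compare cells chosen by fibroblast genes with endothelial and immune-like cells chosen to hold few of those genes, and carry no test. The means rested on different libraries. *Mfap4* stood at 818 and 388 CPM in WT telogen, 1158 and 447 in WT anagen and 91.9 and 17.2 in the KO. *Thbs2* and *Scara5* were highest in the KO, at 1130 and 1153 CPM and at 441 and 456 CPM. *Cyp26b1* stood at 35.5 and 45.1 CPM in WT telogen, 49.6 and 28.4 in WT anagen and 671 and 1091 in the KO. *Cilp* stood at 99.5 and 89.8 CPM in WT telogen, 276 and 55.3 in WT anagen and 772 and 700 in the KO.

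The members were not uniform. Values centred per library gave 7 sub-clusters, described here by their leading genes. Sub-cluster 1 (114 cells) was led by *Il33*, *C3*, *Mmp3*, C2 and *Il6*. Sub-cluster 2 (93 cells) was led by *Slco2a1*, *Fabp4*, *Agt*, *Cxcl13* and *Cd36* and met the naming rule as preadipocyte-like with 4 of 7 markers (*Pparg*, *Fabp4*, *Lpl* and *Cd36*). Sub-cluster 3 (64 cells) was led by *Inmt*, *Pik3ip1*, *Txnip* and *Igfbp3*, and sub-cluster 4 (59 cells) by *Ndufa4l2*, *Cldn10* and *Mfap4*. Sub-cluster 5 (23 cells) was led by *Coch*, *Crabp1*, *Gldn* and *Enpp2* and met 3 marker lists at once (dermal sheath, papillary and pericyte), so it was left unnamed. Sub-cluster 6 (19 cells) was led by *Akr1c18*, *Pla1a*, *Krt19* and *Pi16* and was adventitial-like with 8 of 8 markers. Sub-cluster 7 (19 cells) was led by *Rasgrp2*, *Plxdc1*, *Vwa1* and *Myoc* and held 4 of 10 perineurial markers (*Cldn1*, *Thbs4*, *Sbspon* and *Ptch1*). Sub-clusters 1, 3, 4 and 7 met no fibroblast name.

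Sub-cluster 1 held 25.0% and 36.5% of the members in WT telogen and 34.5% and 36.7% in WT anagen, but 2 and 3 cells (8.70% and 8.57%) in the KO. Sub-cluster 3 held 30.4% and 28.6% of the KO members. Genes that define these sub-clusters differed between KO and WT, so the sizes carry no comparison of cell types. Without centring, 56 of the 58 KO cells formed 1 cluster that held no WT cell, and the adjusted Rand index between this partition and the centred one was 0.696.

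**Figure D2:**
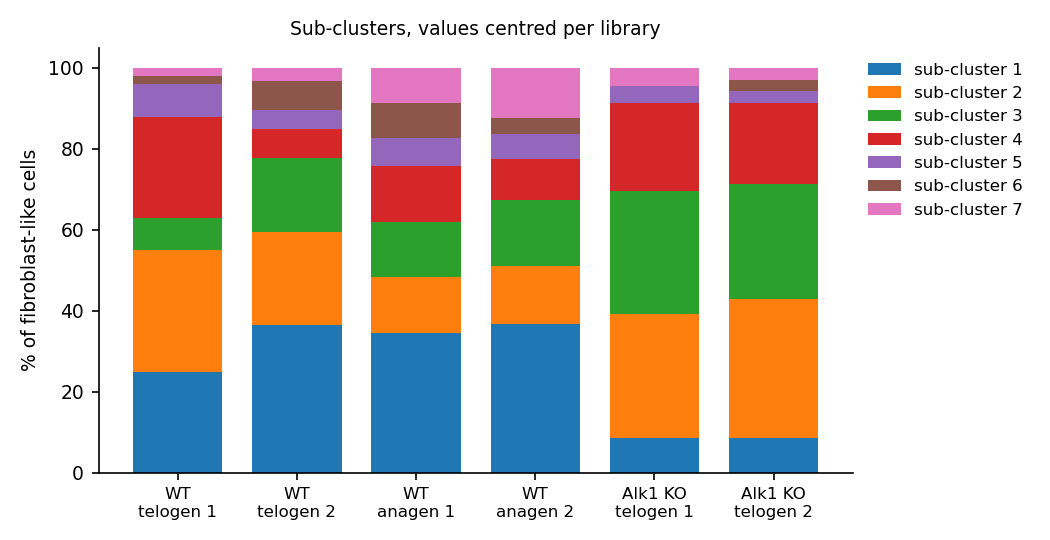
Sub-clusters as a percentage of the fibroblast-like cells of each library (bars sum to all members of a library), from values centred per library. Sub-cluster 1 is the largest in WT telogen 2 (36.5%) and in both WT anagen libraries, and holds 8.70% and 8.57% of the KO members.

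The first comparison was between hair cycle stages in WT skin. Few genes were called in fibroblast-like cells with edgeR. Counts were summed over the members of each library and tested with edgeR, and a gene was called at an adjusted p under 0.05 with a fold over 1.3. Of 8091 genes tested, 8 were higher in anagen (0.0989%) and 2 were lower (0.0247%), together 0.124%. At an unadjusted p under 0.05 there were 969, and DESeq2 called 67. All 10 did not overlap between groups, as did 46.2% of all tested genes.

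*Coch*, which encodes a secreted matrix protein, was at 3.28 and 3.01 CPM in WT telogen and 111 and 100 CPM in WT anagen. It rose by 5.15 ± 0.30 (log2 fold change ± SE, adjusted p = 0.00044, edgeR). *Col8a1*, a short-chain collagen of vessel walls and membranes, was at 1.64 and 0.502 CPM and then 43.6 and 31.4 CPM (5.17 ± 0.52, adjusted p = 0.023). *Foxs1*, a forkhead factor, was at 2.73 and 5.52 CPM and then 30.3 and 32.9 CPM (adjusted p = 0.0465). Each was highest in a small sub-cluster of the anagen members. In sub-cluster 5, *Coch* was at 85.0 CPM in telogen and 2973 in anagen. Among WT members outside sub-cluster 5 it had UMIs only in sub-cluster 4, at 3.03 CPM in telogen and 30.3 CPM in anagen. It was tested in 14 of the 17 alternative settings, and the others give no result for it. In sub-cluster 7, which held 2.65% of the telogen and 10.3% of the anagen members, *Col8a1* and *Foxs1* were at 0 in telogen and at 305 and 209 CPM in anagen. Anagen members of sub-clusters 2 and 3 also held *Col8a1* (36.9 and 64.0 CPM) and *Foxs1* (45.2 and 25.6 CPM). Without sub-clusters 5 and 7 the adjusted p was 0.0708 for *Col8a1* (log2 3.84) and 0.135 for *Foxs1* (log2 2.10). Their part in the change over all members was not tested further.

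The other 5 genes that rose were found more widely. *Apoe*, a lipid carrier, was at 1710 and 1526 CPM in telogen and 5154 and 3716 in anagen (log2 1.57 ± 0.20, adjusted p = 0.0365). The secreted matrix protein gene *Sparcl1* went from 102 and 114 CPM to 414 and 269 CPM (1.79 ± 0.24). *Cpxm2*, a carboxypeptidase-like protein, went from 18.0 and 17.6 CPM to 76.2 and 65.8 CPM (2.11 ± 0.25). The ectonucleotidase gene *Entpd2* went from 116 and 143 CPM to 303 and 335 CPM (1.41 ± 0.19). The immediate early factor *Fos* went from 651 and 622 CPM to 1436 and 1805 CPM (1.46 ± 0.17). In each of these, both anagen libraries lay above both telogen libraries.

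*Agt*, the precursor of angiotensin, fell from 243 and 184 CPM to 2.42 and 17.9 CPM (log2 -4.36 ± 0.49, adjusted p = 0.0297). It was a leading gene of sub-cluster 2, where it was at 498 CPM in telogen and 53.4 in anagen. *Col12a1*, a collagen that lies on the surface of fibrils, fell from 103 and 95.3 CPM to 25.4 and 23.9 CPM (-1.89 ± 0.23, adjusted p = 0.0365). It was the single call among 12 fibrillar and associated collagens, whose median log2 change was -0.09 beside 0.01 for all tested genes.

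The other lists held 1 call (*Sparcl1* among adipogenic genes, *Fos* among immediate early genes and *Apoe* among markers of chemokine-expressing fibroblasts) or none. With DESeq2, 13 of 91 ribosomal protein genes, 7 of 28 cytokine, complement and adhesion genes and 7 of 34 immediate early and heat shock genes were called higher in anagen, and 0 lower, beside 0.729% of all tested genes called higher and 0.0989% lower by DESeq2. Of 26 proteoglycans and glycoproteins it called 1 higher and 3 lower. *Sparc* was at 20514 and 18665 CPM in telogen and 20063 and 19693 in anagen (log2 0.13 ± 0.14, adjusted p = 0.753). *Dcn* was at 9709 and 10126 CPM and then 14276 and 15742 CPM (0.71 ± 0.14, adjusted p = 0.0992), with no overlap between the groups and an adjusted p that missed the threshold. *Serpinf1*, which encodes the anti-angiogenic factor PEDF, had the same pattern (1210 and 1188, then 1827 and 1959 CPM, adjusted p = 0.0981). The chemokine gene *Cxcl1* was at 5536 and 5348 CPM and then 4566 and 5137 CPM (adjusted p = 0.925).

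**Figure D3:**
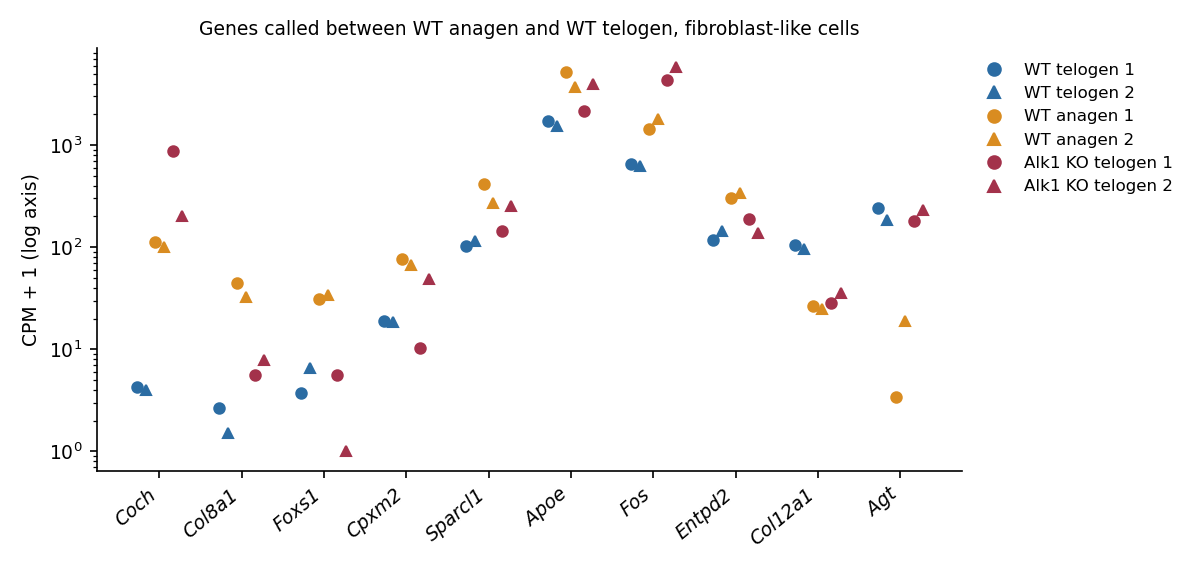
Level (CPM + 1, log axis) in each library of the 10 genes called between WT anagen and WT telogen, with the Alk1 KO libraries for reference. For the first 8 genes both anagen points lie above both telogen points, and for *Col12a1* and *Agt* below.

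The stage effect was then compared with that in endothelial cells and in perineurial-like cells of the same libraries, by the interaction of population and stage with the library as a block. Against endothelial cells, 200 of 12614 genes had a higher anagen effect in fibroblast-like cells (1.59%) and 95 a lower one (0.753%). Against perineurial-like cells there were 23 (0.216%) and 20 (0.187%) of 10667. Of the 12 collagens, 8 had a higher effect than in endothelial cells, and 0 than in perineurial-like cells. *Col1a1* was at 32394, 23077, 27080 and 22907 CPM in the 4 WT fibroblast-like samples, and at 41.7 and 52.0 CPM in telogen and 12.4 and 15.8 CPM in anagen endothelial cells. Immune-like cells, which do not make fibrillar collagen, held 28.5 and 27.7 CPM in telogen and 9.86 and 21.1 CPM in anagen, so the endothelial values lay near the level of free RNA. Endothelial and immune-like cells were both chosen to hold few of the rule markers. The part of free RNA in the difference was not tested.

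The second comparison was between Alk1 KO and WT telogen skin. In the KO 12 of 12 collagens, 17 of 20 genes that process them and 65 of 80 mitochondrial respiratory genes fell, along with 12 of 28 cytokine, complement and adhesion genes. *Igfbp3*, 7 of 12 clock genes and 14 of 34 immediate early and heat shock genes rose. Measures of RNA content moved with these changes. *Malat1* took 2.13% and 2.01% of the members' UMIs in WT telogen, 2.22% and 2.39% in WT anagen and 3.86% and 6.61% in the KO. Genes of the mitochondrial genome took 2.93% and 3.03%, 2.62% and 2.18%, and 1.49% and 1.70% in the same order. Both KO libraries lay outside the WT range in each, and their part in the changes of the lists was not tested. Of 8047 genes tested, 1300 were higher (16.2%) and 1590 lower (19.8%), together 35.9%. In 2889 of the 2890 called genes the 2 groups did not overlap, and this held for 71.8% of all tested genes. With library totals in place of TMM factors the count was 1965 higher (24.4%) and 1107 lower (13.8%), and the share of higher calls moved from 45.0% to 64.0%. The median log2 change of all tested genes was -0.06 with TMM and 0.30 with totals. The calls are read against the 35.9% of all genes called, and counts with library totals are given where they turn the direction of a list. DESeq2 called 1694 genes, and with 23 cells per library thinned to 3000 UMIs each, 548 of 1320 tested genes were called. In endothelial cells of the same libraries 4405 of 12707 genes (34.7%) were called in this contrast. In perineurial-like cells, with 27 and 21 cells in the KO libraries, 1044 of 9873 (10.6%) were called.

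Every collagen of the list fell, 12 of 12, with a median log2 change of -4.10. *Col1a1* was at 32394 and 23077 CPM in WT telogen and 1860 and 1795 CPM in the KO (log2 -4.27 ± 0.33, adjusted p = 0.00011, edgeR). *Col1a2* went from 25999 and 21008 CPM to 1359 and 1410 CPM (-4.44 ± 0.30), and *Col3a1* from 26997 and 29132 CPM to 547 and 470 CPM (-6.13 ± 0.33, adjusted p = 5.7e-05). In both the KO libraries lay far below all 4 WT libraries. *Col5a1*, a chain of the type V collagen that starts fibrils, went from 1041 and 996 CPM to 110 and 75.5 CPM. *Col6a1*, a chain of beaded-filament collagen VI, went from 1044 and 1232 CPM to 124 and 196 CPM. The smallest change was that of *Col5a2*, from 1329 and 1348 CPM to 427 and 439 CPM (-1.98 ± 0.23). The 12 genes took 9.15% and 7.97% of the members' UMIs in WT telogen, 7.96% and 6.96% in WT anagen and 0.462% in each KO library. *Col1a1* stayed between -4.98 and -3.91 on the log2 scale in all alternatives run, including equal cells and depth.

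The level of *Col1a1* was lower in the KO in each of sub-clusters 1 to 4, which held at least 5 KO cells. It was at 21508 CPM in the telogen cells and 838 CPM in the KO cells of sub-cluster 2. In sub-cluster 4, where it was highest, it was at 63498 and 4083 CPM. Sub-clusters 5, 6 and 7 held 2, 1 and 2 KO cells, and in sub-cluster 5 *Col1a2* was at 4013 CPM in telogen and 2701 CPM in the KO. Without WT telogen library 2, so that the libraries compared shared the *Xist*-high pattern, the log2 change of *Col1a1* was -4.56 (the lone telogen library being assumed to vary like the KO libraries). With equal cells and depth it was -4.05. The parts of age, strain, the Krt14-H2BGFP allele and the separate dataset in this fall cannot be told apart from that of genotype.

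Of 20 tested genes that modify, cross-link or bind procollagen, 17 fell and 1 rose (median -2.73). *Serpinh1*, the collagen chaperone HSP47, went from 2832 and 2583 CPM to 216 and 230 CPM (-3.95 ± 0.26). *Sparc* went from 20514 and 18665 CPM to 2062 and 1637 CPM (-3.75 ± 0.30). *Pcolce*, which enhances procollagen cleavage, went from 1238 and 1177 CPM to 119 and 41.2 CPM. The cross-linking enzyme gene *Loxl2* went from 211 and 228 CPM to 45.9 and 17.2 CPM. *Lox*, another cross-linking enzyme, was the 1 that rose, from 287 and 188 CPM to 868 and 885 CPM (1.53 ± 0.27, adjusted p = 0.0032). In sub-cluster 2 alone *Lox* was not called (adjusted p = 0.141, edgeR), and its log2 difference ranged from 0.85 to 2.27 over the settings.

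**Figure D4:**
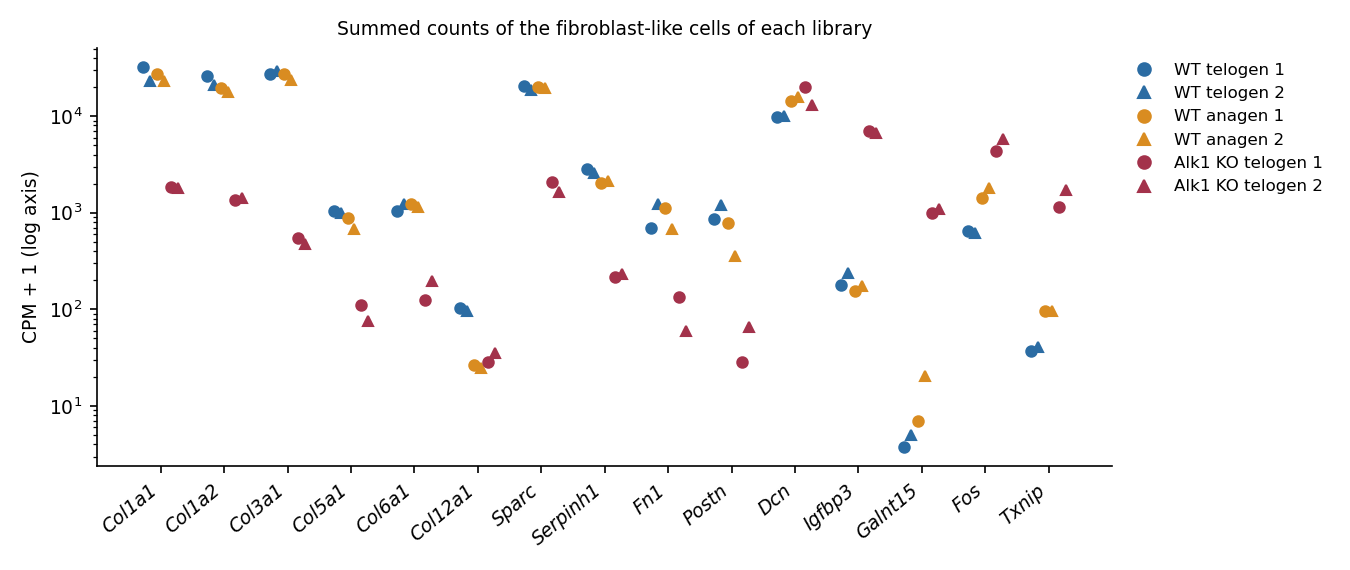
Level (CPM + 1, log axis) in each library of 15 genes in fibroblast-like cells, of which *Txnip* was chosen after its values were seen. The KO points of the collagens, *Sparc*, *Serpinh1*, *Fn1* and *Postn* lie below all telogen points, those of *Igfbp3*, *Galnt15*, *Fos* and *Txnip* above them, and those of *Dcn* above with a difference that did not pass the test.

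Genes of ER folding and secretion fell in 14 of 21 and rose in 0 (median -1.73). *Sec61b*, a subunit of the translocon, went from 833 and 720 CPM to 59.7 and 27.5 CPM (-4.55 ± 0.37). *Calr*, a lectin chaperone, went from 917 and 890 CPM to 161 and 233 CPM (-2.54 ± 0.26), and *Hsp90b1* from 843 and 917 CPM to 197 and 312 CPM. *Hspa5*, the chaperone BiP, was at 1983 and 1597 CPM and 1006 and 1675 CPM, and its groups overlapped (adjusted p = 0.0582). Genes of oxidative phosphorylation fell in 65 of 80 and rose in 1, *Ndufa6* (median -1.55). Ribosomal protein genes fell in 33 of 90 and rose in 7 (median -0.55) with TMM, but with library totals 8 fell and 15 rose, so their direction depends on the scaling.

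Other matrix genes changed in both directions. Of 24 proteoglycans and glycoproteins 12 fell and 1 rose. *Postn*, a matricellular protein, went from 869 and 1196 CPM to 27.6 and 65.2 CPM (-4.78 ± 0.37), and *Fn1* (fibronectin) from 694 and 1229 CPM to 133 and 58.3 CPM (-3.70 ± 0.43). *Ccn3*, a CCN-family matricellular protein, rose from 12.6 and 19.6 CPM to 524 and 158 CPM (4.03 ± 0.55). *Dcn* was at 9709 and 10126 CPM and 19813 and 13105 CPM (0.39 ± 0.30, adjusted p = 0.33). Of 16 elastic fibre genes 8 fell, among them *Fbn1* (fibrillin-1, from 950 and 1119 CPM to 142 and 113 CPM), and *Fbln5* rose from 80.4 and 62.7 CPM to 271 and 316 CPM. In the preadipocyte-like sub-cluster 2 alone, the log2 difference of *Fbln5* was -0.05 (adjusted p = 0.93). Of 13 basement membrane genes 6 fell and 1, *Lama2*, rose. Of 20 proteases and inhibitors 5 fell and 4 rose with TMM, and 5 fell and 6 rose with library totals. *Mmp3* (stromelysin-1) went from 438 and 608 CPM to 36.7 and 48.0 CPM, but in sub-cluster 2 alone its log2 difference was -1.49 and not called (adjusted p = 0.175). *Mmp3* was a leading gene of sub-cluster 1, which held 5 KO cells. *Ctsk* (cathepsin K) went from 780 and 603 CPM to 2081 and 2169 CPM.

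Among secreted growth factors, *Igfbp3*, an IGF-binding protein, had the largest rise. It was at 177 and 236 CPM in WT telogen, 152 and 174 CPM in WT anagen and 7027 and 6732 CPM in the KO (4.71 ± 0.29, adjusted p = 5.7e-05). *Igf1* itself fell from 973 and 924 CPM to 55.1 and 96.1 CPM (-3.98 ± 0.30). *Igfbp4* fell from 580 and 922 CPM to 13.8 and 58.3 CPM (-4.65 ± 0.47), but in sub-cluster 2 alone its log2 difference was 0.79. In all, 11 of 22 genes of this list fell and 3 rose. The 3 were *Igfbp3*, *Vegfa* and *Vegfc*.

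Of 28 cytokine, complement and adhesion genes 12 fell and 2 rose. *Il33*, *C3* and *Il6* of this list, and *Isg15* and *Gbp2* of the interferon list, were among the 10 leading genes of sub-cluster 1, which held 31.4% of the telogen and 8.62% (5 cells) of the KO members. *C3* was called lower over all members, but in sub-cluster 2 alone its log2 difference was 0.63 (adjusted p = 0.422). Over the settings run, which included sub-cluster 2 alone, *Il6*, *Cxcl2*, *Ptgs2* and *Vcam1* kept their call and direction. Their log2 differences were no weaker than -1.27, -7.77, -6.33 and -2.50 in any setting. In sub-cluster 2 alone *Cxcl12* and *Ptges* lost their call. The part of sub-cluster 1 in the falls over all members was not tested. The neutrophil chemokine gene *Cxcl2* was at 1932 and 1640 CPM in WT telogen, with 0 and 3 UMIs in the KO. *Ptgs2*, the inducible cyclooxygenase, was at 544 and 669 CPM, with 2 and 0 UMIs in the KO. *Il33*, an alarmin, was at 53.6 and 97.3 CPM and had no UMI in the KO, at least 13.0-fold lower (bound from 3 counts over the KO group). *Il6* fell from 839 and 888 CPM to 381 and 213 CPM (-1.89 ± 0.31), and *Cxcl1* from 5536 and 5348 CPM to 3371 and 1136 CPM (-1.60 ± 0.45, adjusted p = 0.0238). *Ccl2* was at 4297 and 4769 CPM and 3426 and 480 CPM (adjusted p = 0.11), with the KO libraries far apart. *Icam1*, an adhesion receptor, rose from 398 and 257 CPM to 1038 and 916 CPM, and *C4b* rose as well. Interferon and antigen presentation genes fell in 8 of 17 and rose in 2. *Ifi27* fell from 425 and 467 CPM to 59.7 and 17.2 CPM, while the transcription factors *Irf1* and *Irf9* rose.

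Alk1 belongs to the receptors of the TGF-beta and BMP family. *Acvrl1*, its gene, was at 36.1 and 46.6 CPM in WT telogen, 49.6 and 40.4 CPM in WT anagen and 32.1 and 24.0 CPM in the KO, with 7 UMIs in each KO library (log2 -0.94 ± 0.39, adjusted p = 0.094). The 3′ tags need not lie in the floxed part, so this level does not check the deletion. The co-receptor gene *Eng* fell from 31.2 and 35.1 CPM to 9.19 and 10.3 CPM (-2.09 ± 0.51, adjusted p = 0.0133). The ligand gene *Bmp4* rose from 4.92 and 9.53 CPM to 41.3 and 75.5 CPM (2.67 ± 0.49, adjusted p = 0.00402), and was at 23.0 and 16.4 CPM in anagen. *Tgfbr3* (betaglycan) rose from 127 and 177 CPM to 808 and 916 CPM. The target genes *Id1* (25.7 and 10.5 CPM to 124 and 182 CPM) and *Ccn2* (16.4 and 9.53 CPM to 179 and 137 CPM) rose as well. Among inhibitors, *Grem1* rose from 22.4 and 6.02 CPM to 78.1 and 172 CPM, whereas *Chrdl1* fell from 119 and 209 CPM to 27.6 and 3.43 CPM and *Fstl1* from 1595 and 1993 CPM to 427 and 388 CPM. Over the list, 11 of 37 rose and 7 fell (median 0.39), which is 48.6% called beside 35.9% of all genes.

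Wnt pathway genes were called about as often as all genes (35.3% beside 35.9%). Of 17 tested 5 rose, among them *Wnt11*, the inhibitor gene *Dkk2* (12.03 and 9.53 CPM to 82.7 and 151 CPM) and the target gene *Axin2* (5.47 and 1.505 CPM to 23.0 and 34.3 CPM), and 1, *Sfrp4*, fell. Adipogenic genes rose in 7 of 18 and fell in 1, so that 44.4% were called beside 35.9% of all genes. *Pparg*, the regulator of fat cell differentiation, went from 6.56 and 2.51 CPM to 23.0 and 110 CPM (3.58 ± 0.70). *Fabp4* went from 132 and 176 CPM to 427 and 1359 CPM, and the lipocalin gene *Apod* from 697 and 762 CPM to 10784 and 3099 CPM. The KO libraries differed from each other in all 3 by more than the telogen libraries did. Without KO library 2 *Pparg* lost its call, and its log2 difference ranged from 2.03 to 4.30 over the settings. *Scd1*, a desaturase of fatty acid synthesis, fell from 56.3 and 70.2 CPM to 27.6 and 24.0 CPM.

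Clock genes rose in 7 of 12 and fell in 0 (median 1.81). The PAR bZIP factors *Tef* and *Hlf* went from 5.47 and 4.51 CPM to 55.1 and 65.2 CPM, and from 4.92 and 4.51 CPM to 64.3 and 54.9 CPM (3.23 ± 0.43 and 3.27 ± 0.44). *Per3*, a period gene, was at 4.37 and 5.02 CPM and 27.6 and 51.5 CPM. *Nr1d2*, a REV-ERB receptor, was at 15.9 and 15.05 CPM and 82.7 and 89.2 CPM. The times of day at which the mice were taken are not given in the sources used here.

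Of 34 immediate early and heat shock genes 14 rose and 3 fell. *Fos* went from 651 and 622 CPM to 4345 and 5823 CPM (2.64 ± 0.25), *Egr1* from 485 and 471 CPM to 3665 and 3370 CPM (2.53 ± 0.24), and the feedback inhibitor gene *Socs3* from 166 and 257 CPM to 1483 and 968 CPM. The 3 that fell were the chaperone genes *Hsph1* and *Dnajb1* and the flow-responsive factor gene *Klf2*, whose log2 difference was 0.76 in sub-cluster 2 alone. Among genes of glycolysis and hypoxia 4 rose and 3 fell of 17. *Bnip3* (23.0 and 12.5 CPM to 239 and 302 CPM) and *Adm* (84.8 and 99.3 CPM to 491 and 501 CPM), both known to respond to low oxygen, rose. In sub-cluster 2 alone *Adm* was not called (adjusted p = 0.0956, edgeR), and its log2 difference ranged from 0.82 to 2.44 over the settings. The glycolytic *Pgk1* fell from 113 and 84.8 CPM to 36.7 and 48.0 CPM.

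Of the 12 largest rises over all genes by fitted value, 3 had no UMI in WT telogen. *Slc15a2*, a peptide transporter, the non-coding *A530053G22Rik* and the mitochondrial carrier *Slc25a27* were at least 55.1-fold, 55.1-fold and 52.6-fold higher in the KO (bounds from 3 counts over the telogen group). *Galnt15*, a glycosyltransferase, went from 2.73 and 4.01 CPM to 983 and 1098 CPM (7.86 ± 0.33, adjusted p = 1.6e-05). The B cell chemokine gene *Cxcl13* went from 15.9 and 27.6 CPM to 1943 and 2707 CPM (6.38 ± 0.36), and the p53 target *Trp53inp1* from 3.83 and 2.51 CPM to 239 and 374 CPM (6.21 ± 0.38). *Coch* was at 868 and 199 CPM. Among KO members it was at 12005.5 CPM in the 2 cells of sub-cluster 5, whose members held a median of 4 rule markers. It was at 381 CPM in sub-cluster 4, 20.2 CPM in sub-cluster 3 and 0 in sub-clusters 1, 2, 6 and 7. *Ctla2a* and *4930486L24Rik* were high in KO library 2 (607 and 158 CPM) but at 13.8 CPM each, 3 UMIs, in KO library 1. The rest of the 12 were *Plin4*, *Cacna1e* and *E230001N04Rik*.

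Ranked by fitted value, the 12 largest falls were genes with no UMI in either KO library, out of 81 such called genes. This rank does not order measured folds, and only bounds are given for the 12. Among called genes with UMIs in the KO, the fitted falls of *Cxcl2* (383-fold) and *Col3a1* (70.3-fold) exceeded all of these bounds. The growth factor *Clec11a*, at 230 and 270 CPM in WT telogen, was at least 42.6-fold lower. The kallikrein gene *Klk1* (88.0 and 333 CPM) was at least 36.6-fold lower, *Cgref1* (151 and 76.7 CPM) 19.1-fold, and the ER collagen isomerase *Fkbp14* (107 and 101 CPM) 17.7-fold. *Il33*, *Bace2*, *Tmem97*, *Srgn*, *Akr1c18*, *Gamt*, *Nrk* and *Ptn* followed, with bounds of 13.0-fold down to 8.84-fold. The KO group held 217733 and 291425 UMIs of members, and a count of 0 over both allows up to 5.89 CPM.

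**Figure D5:**
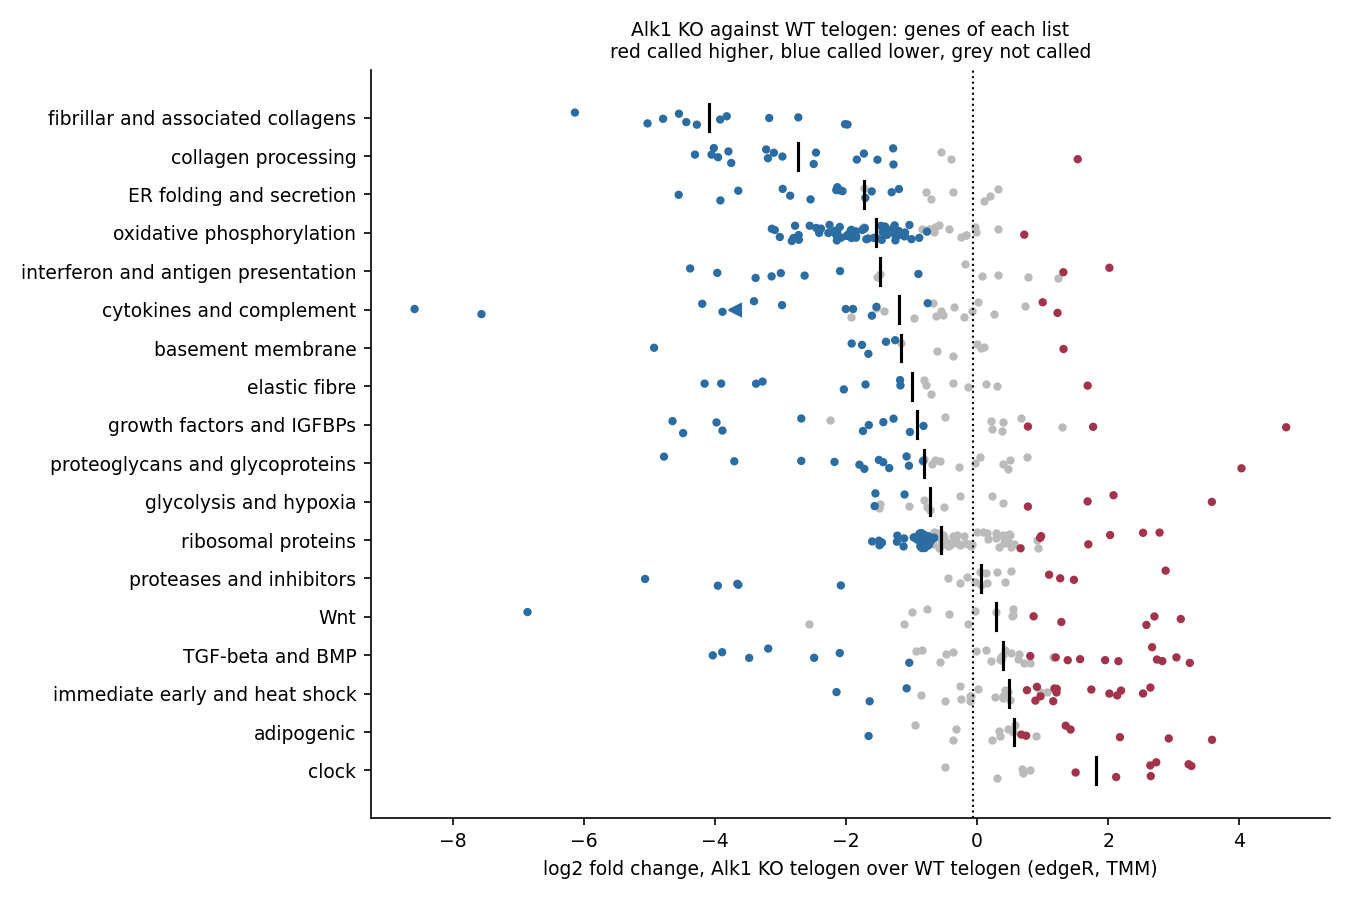
Log2 fold change, Alk1 KO over WT telogen, of each tested gene of 18 lists (edgeR, TMM). Red points were called higher, blue points lower and grey points not called, bars mark list medians, the dotted line marks the median of all tested genes (-0.06), and the triangle marks a gene with no UMI in the KO at its bound. All 12 collagens lie left of the line, and no called clock gene does. Ribosomal genes change direction with the scaling.

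The KO effect differed from that in endothelial cells of the same libraries in 884 of 12940 genes with a higher effect (6.83%) and 1164 with a lower one (9%). Against perineurial-like cells (27 and 21 cells in the KO libraries) there were 306 (3.07%) and 212 (2.13%) of 9958. Of the 2890 genes called in fibroblast-like cells, 1550 (53.6%) also differed from the endothelial effect in the same direction. The same fibroblast-like counts entered both tests, so this share is a description only. Collagen processing genes had a lower effect than in endothelial cells in 13 of 21, ER genes in 11 of 22 and oxidative phosphorylation genes in 56 of 85, and immediate early genes had a higher one in 16 of 34. *Sparc* went from 3006 and 3057 CPM to 577 and 572 CPM in endothelial cells, and its fall in fibroblast-like cells was larger by 1.42 (log2, adjusted p = 1.3e-06). *Igfbp3* went from 102 and 92.3 CPM to 445 and 441 CPM there, and its rise in fibroblast-like cells was larger by 2.48 (adjusted p = 1.7e-09).

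Among the 12 fibrillar and associated collagens, 3 had a higher and 1 a lower KO effect than in endothelial cells (median difference -0.19). Endothelial *Col1a1* was at 41.7 and 52.0 CPM in WT telogen and 0.787 and 0.784 CPM in the KO, and *Col1a1* in immune-like cells was at 28.5 and 27.7 CPM and then 0 and 1.24 CPM. The low collagen levels of these other cells thus moved with those of the fibroblast-like cells. In perineurial-like cells, which make collagen, *Col3a1* went from 2520 and 2894 CPM to 260 and 269 CPM, and its fall in fibroblast-like cells was larger by 2.52 (adjusted p = 5.9e-09). There, 5 of 12 collagens had a lower effect in fibroblast-like cells and 0 a higher one.

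The promoters of the collagen genes were read from RefSeq (GRCm38.p6), because the genes moved together. CCAAT on either strand (CCAAT or ATTGG), the core letters of a promoter element of type I collagen genes, was searched in the 250 bases before the start. Of 12 collagen genes 8 were in the table and 3 of these held the letters (37.5%), beside 33.8% of all 32851 windows. The first share counts genes and the second counts windows, and *Col6a2* had 2 windows, so they are not on the same basis. The last 120 bases before the start are shown for 2 genes with a large fall, with CCAAT or its reverse in capitals where present, at chr6:4505498-4505617 (plus strand) and chr1:45311418-45311537 (plus strand).
Col1a2: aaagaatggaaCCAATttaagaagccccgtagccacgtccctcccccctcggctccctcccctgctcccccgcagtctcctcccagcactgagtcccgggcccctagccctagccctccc
Col3a1: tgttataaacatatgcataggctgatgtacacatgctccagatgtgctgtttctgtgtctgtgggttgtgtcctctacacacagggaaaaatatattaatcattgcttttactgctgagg
Both genes fell, with and without the letters.

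The 7 rule genes changed in both directions in the KO, which bears on how readily a KO cell met the rule. *Pdgfra* was at 169 and 175 CPM in WT telogen and 560 and 614 CPM in the KO, and *Mmp2* at 510 and 559 CPM and 1088 and 1101 CPM. *Lum* was at 2258 and 1808 CPM and 326 and 254 CPM, *Clec3b* at 1442 and 1591 CPM and 675 and 374 CPM, and *Dpt* at 593 and 772 CPM and 294 and 299 CPM. *Loxl1* was at 308 and 359 CPM and 78.1 and 58.3 CPM, and *Tnfaip6* at 3522 and 3212 CPM and 4386 and 2519 CPM. These levels carry no test.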

How the data were processed

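Gene expression was measured by 10x Chromium 3′ v3 single-cell RNA-seq. The authors deposited raw UMI counts per gene and cell (32285 features), made with Cell Ranger 6.0.1 on mm10 and not normalized or pooled. The authors analysed cells with Seurat 4.0. Columns of per-sample values left unused numbered 0. The members, gene lists and tests were chosen with earlier results of these data known.

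Counts of the members were summed per library, filtered with filterByExpr, scaled by TMM and tested with edgeR 4.0.16 (quasi-likelihood test) in R 4.3.3, the p-values being adjusted across every tested gene (Benjamini-Hochberg). The threshold for a call was 0.05 on the adjusted p together with a 1.3-fold change. DESeq2 1.42.0 was an alternative. The edgeR steps were tested on simulated data. P-values measure the spread between 2 mice a group, and intervals and floors cover counting error only. Depth per library is given above. Stage and KO comparisons share the WT telogen libraries.

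Endothelial cells had a UMI of *Pecam1* and *Cdh5*, none of *Ptprc* and fewer than 2 of the 7 rule markers. Perineurial-like cells had a UMI of at least 2 of *Wnt6*, *Cldn22* and *Slc6a13*, and none of *Ptprc* or *Pecam1*. Immune-like cells had a UMI of *Ptprc* and of *Tyrobp*, *Cd3e* or *Cpa3*, none of *Pecam1* and fewer than 2 of the 7 rule markers. Sub-clusters came from 2000 variable genes, 20 principal components, 15 neighbours and Leiden resolution 0.6 (leidenalg 0.10.2). A name needed 3 markers at least 2-fold above the other members in 25% of the cells. Scrublet (scanpy 1.11.5) marked under 0.5% of cells in 4 libraries, so the top 5% of scores were removed as an alternative, and doublets were otherwise kept.

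Genes named were the 12 largest rises and 12 largest falls among called genes without overlap, called members of the lists or the 2 most abundant of a list without a call, *Acvrl1*, *Cdh5*, *Bmp4*, *Eng* and sex-linked genes, and the 5 largest rises and falls of each interaction. Symbols shared by several identifiers (38) were not used. The replicate numbers of the labels did not pair the libraries: the correlation of deviations of same-numbered libraries was 0.0313 in the stage and 0.00627 in the KO comparison.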

Additional observations from a re-analysis of the deposited data

Results flagged for a closer look

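The results of this part are differences between fibroblast-like cells and another population of the same libraries under the same contrast, tested in edgeR as an interaction with the library as a block. Levels are CPM of summed counts. The anagen effect differed from that in endothelial cells in 295 genes and from that in perineurial-like cells in 43 genes. The KO effect differed from that in endothelial cells in 2048 genes and from that in perineurial-like cells in 518 genes. Where a group held no UMI of a gene, its adjusted p and levels are given without a fold.

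Among the largest differences in the anagen effect from endothelial cells, *Coch* was higher by 8.04 (log2), at 3.28 and 3.01 CPM in telogen and 111 and 100 CPM in anagen fibroblast-like cells against 10.6 and 10.8 and then 1.65 and 0.822 CPM in endothelial cells. *Il34*, a ligand of the CSF1 receptor, differed by 6.62 and *Trarg1* by 5.50. *F2rl1* (adjusted p = 0.0472) had no UMI in telogen fibroblast-like cells and 7.26 and 1.495 CPM in anagen, and *Zim1* (adjusted p = 0.0399) had none in anagen endothelial cells. *Plxna4*, a semaphorin co-receptor, was at 14.8 and 13.5 CPM in telogen fibroblast-like cells and had no UMI in anagen (adjusted p = 0.0192). *Alg3* differed by -3.45, the cystine transporter gene *Slc7a11* by -2.59, *Cdc42ep3* by -2.57 and *Zfp593* by -2.24.

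Against perineurial-like cells, *Emid1* differed by 6.35 and *Egfl8* by 5.49. *Gldn* (adjusted p = 0.00374) and *Pi15* (adjusted p = 0.0163) had no UMI in anagen perineurial-like cells, and the ETS factor gene *Etv4* (adjusted p = 0.0163) had none in telogen fibroblast-like cells and 7.26 and 10.5 CPM in anagen. *Hbb-bs*, a globin gene of red cells, differed by -6.62, with 530 CPM in perineurial-like cells of anagen library 2 and at most 5.62 CPM in the other 3 libraries. *Klk1* differed by -5.78, *Cpz* by -4.25, the fatty acid receptor gene *Cd36* by -3.40 and the fatty acid carrier gene *Fabp4* by -3.29. *Klk1* went from 88.0 and 333 CPM to 14.5 and 0 CPM in fibroblast-like cells. *Cpz* was at 344 and 166 and then 272 and 197 CPM there. In perineurial-like cells *Cpz* was at 0 and 0.254 and then 2.41 and 4.13 CPM.

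The KO differences with the largest fitted values all had a group without a UMI. Against endothelial cells they were *S100g* (adjusted p = 0.00342), *Avpr1a* (0.000238), *Mamdc2* (1.94e-07), *Slc25a27* (4.01e-05) and *Zfp941* (0.00635) in the higher direction, and *Klk1* (3.87e-05), *Cgref1* (1.32e-08), *Fkbp14* (1.57e-07), *Ptn* (1.85e-05) and *Prdm8* (0.00629) in the lower. *S100g* and *Avpr1a* were at 13.8 CPM, 3 UMIs, in KO library 1 and at 0 in KO library 2. *Fkbp14* was at 107 and 101 CPM in telogen fibroblast-like cells and 0 in the KO, against 7.17 and 12.9 and then 13.5 and 16.0 CPM in endothelial cells.

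Against perineurial-like cells they were *Rerg* (adjusted p = 0.00416), *Ctla2a* (0.000629), *Mex3a* (0.00112), *Adamts17* (0.0196) and *Retreg1* (0.00372) in the higher direction, all at 0 in KO perineurial-like cells, and *Rassf4* (8.62e-05), *Srgn* (3.42e-07), *Miat* (0.0122), *Il33* (6.75e-07) and *Ildr2* (4.03e-05) in the lower, all at 0 in KO fibroblast-like cells. *Il33* was at 53.6 and 97.3 CPM in telogen fibroblast-like cells, and at 557 and 578 and then 978 and 354 CPM in perineurial-like cells.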

How the results depend on the processing

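The number of genes called between anagen and telogen moved with most settings. It was 354 without a filter on low counts, 67 with DESeq2, 4 with all 6 libraries in one fit, 27 without the upper gene limit, 19 with at least 5 of 7 markers, 73 in cells without other-cell markers, 5 with likely doublets removed, 4 with equal cells and depth, and 24 without sub-clusters 5 and 7, a setting chosen after seeing the data. Leaving out each library gave 20 (without telogen library 1), 106 and 128 (without anagen libraries 1 and 2) and 155 (without telogen library 2). Each of the 10 genes lost its call in at least 1 setting and kept its direction in all of those that tested it. The causes were not tested.

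The KO count was 1694 with DESeq2, 548 of 1320 genes with equal cells and depth, where fewer genes were tested, and 1587 of 4498 genes in sub-cluster 2 alone, chosen after seeing the data like the scaling by library totals. Leaving out each library gave 1521 and 1540 (without telogen libraries 2 and 1) to 2921 (without KO library 1). Of 206 called genes named by the rule, 122 kept their call in every setting, 78 lost it in at least 1 with the direction kept in all, and 6 turned in 1 setting without a call there (*Fbln5*, *Igfbp4*, *C3*, *Klf2*, *Sdc2* and *Lrp6*).

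The anagen difference from endothelial cells counted 704 genes without a filter and 159 with DESeq2, and 28 (without telogen library 1) to 602 (without anagen library 2) by library left out. That from perineurial-like cells counted 144 and 9, and 75 to 143 by library left out. The KO difference from endothelial cells counted 1078 with DESeq2 and 952 to 2516 by library left out. That from perineurial-like cells counted 297 with DESeq2 and 43 (without KO library 1) to 405 by library left out. Of the 10 genes named in each of these differences, 1, 1, 5 and 0 kept their call in every setting, in this order. The share of fibroblast-like cells with a *Cdh5* UMI was 4.22% at 3000 UMIs, where that of immune-like cells was 1.13%, and 12.8% without thinning. At 1500 UMIs it was 0.763% (without WT telogen library 2) to 1.74% (without WT telogen library 1) by library left out, a setting chosen after seeing the data.

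With the replicate number as a block, 4 genes were called in the stage comparison, all higher, and 2683 in the KO comparison. The numbers name the libraries and did not pair them.

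Differences that were not called in the stage comparison turned with the library left out. Their log2 values ranged from -0.049 to 0.78 for *Ccl2*, from -0.30 to 0.012 for *Fstl1*, from -0.082 to 0.65 for *Ccn1*, from -0.15 to 1.12 for *H2-D1*, from -0.087 to 0.86 for *B2m*, from -0.66 to 0.074 for *Pcna*, from -0.0367 to 0.26 for *Hmgb2*, from -0.83 to 0.37 for *Cdh5*, from -0.39 to 0.59 for *Eng*, from -0.21 to 7.26 for *Ddx3y* and from -0.054 to 8.72 for *Eif2s3y*. *Fstl1* (0.12) and *Pgam1* (0.18) turned with equal cells and depth, *Pcna* (0.27) in cells without other-cell markers and *Hmgb2* (-0.045) without the upper gene limit. In the KO comparison *Sdc2* (0.093) and *Lrp6* (-0.047) turned with equal cells and depth, and *Fbln5* (-0.052), *Igfbp4* (0.79), *C3* (0.63) and *Klf2* (0.76) in sub-cluster 2 alone. The share of fibroblast-like cells stayed lower in anagen and in the KO than in telogen in all alternatives, but its ratio of KO to telogen ranged from 0.289 (thinned to 1500 UMIs) to 0.54 (likely doublets removed). The KO libraries held 23 and 35 members, which limits what can be detected there.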

Other observations

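The single genes given here lay outside the naming rule and were chosen after their values were seen, and no list of such genes was tested. *Tsc22d3*, which encodes the leucine zipper protein GILZ, was at 52.5 and 34.6 CPM in WT telogen, 46.0 and 37.4 CPM in WT anagen and 726 and 1184 CPM in the KO (log2 4.10 ± 0.33, adjusted p = 0.00013, edgeR). *Zbtb16*, which encodes the zinc finger repressor PLZF, was at 13.7 and 65.2 CPM, 4.84 and 11.96 CPM, and 317 and 367 CPM in the same order (2.76 ± 0.55). *Fkbp5*, a co-chaperone of HSP90, was at 7.66 and 22.6 CPM in WT telogen and 96.4 and 148 CPM in the KO (2.66 ± 0.46). The zinc finger factor *Klf15* was at 1.09 and 3.51 CPM and 45.9 and 92.6 CPM (4.51 ± 0.58), and the kinase *Sgk1* at 207 and 147 CPM and 597 and 415 CPM (1.16 ± 0.29).

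*Tsc22d3* was at 80.1 and 150 CPM in telogen and 512 and 509 CPM in KO endothelial cells, and at 307 and 550 CPM and 1386 and 3544 CPM in perineurial-like cells. Its KO effect was larger in fibroblast-like cells by 1.83 and 1.89 (log2, adjusted p = 0.00015 and 4.2e-05). *Txnip*, which encodes a thioredoxin-binding protein, was at 36.1 and 40.1 CPM in telogen and 1157 and 1702 CPM in KO fibroblast-like cells (4.87 ± 0.29, adjusted p = 5.7e-05). *Pdk4*, a kinase that limits glucose oxidation, was at 0.547 and 4.01 CPM and 50.5 and 27.5 CPM (adjusted p = 0.00577).

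Sub-type marker genes were also called in the KO, beside 35.9% of all tested genes. Of 7 tested adventitial markers 5 fell and 0 rose, among them *Dpp4*, *Sema3c* and *Ackr3*. The adventitial-like sub-cluster 6 held 4.87% of the telogen members and 1 KO cell (1.72%). Of 6 preadipocyte markers 3 rose and 0 fell (*Pparg*, *Fabp4* and *Icam1*). Of 6 reticular markers 2 rose and 3 fell with TMM but 3 rose and 2 fell with library totals, and of 6 markers of chemokine-expressing fibroblasts 1 rose and 4 fell with TMM but 2 rose and 2 fell with library totals. Of 6 papillary markers 1 rose and 0 fell, and of 3 endoneurial markers 2 rose and 0 fell. Of 3 dermal sheath markers 1 rose and 2 fell, and 0 were called of 2 dermal papilla markers and 1 tenocyte marker.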
